A study of Oryza sativa with 36 samples.

Results

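Homeobox genes of the HOX, ROC, OSH, HOS and WOX series were described in young rice panicles, 2 cm long, of 6 varieties grown well watered or under drought stress. A gene was taken as a member when its RefSeq symbol or synonym was one of these names followed by a number, and the brightest of its probe sets on the Affymetrix Rice Genome Array stood for it. The rule found 55 homeobox genes, of which 50 had a probe set, among 17905 genes and 57194 probe sets in all. The other 5 (HOX3, ROC9, OSH10, OSH15 and WOX5) were matched by name only and have no value here. One further spelling match, OsH2B, was a histone gene (H2B.7) and was left out.

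The varieties were MILT1444, EMATAYIN, DOURADOAGULHA and HUHAN3, selected as drought tolerant, and KHAUMEO and NIPPONBARE, selected as drought sensitive. DOURADOAGULHA and KHAUMEO are indica and the other 4 are japonica. All plants stood in cement enclosed plots, and the drought-stressed ones were left to dry out from the later tillering stage. Each variety and treatment had 3 arrays, so that 36 arrays formed 12 groups. The labels do not tie an array to a plant or a plot, although the methods speak of independent biological replicates. Varieties and subspecies are represented by few accessions, so values for tolerant or indica rice are values of these accessions.

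A homeodomain is a short DNA-binding fold shared by plant and animal transcription factors that set the fate of cells. In plants the HD-Zip proteins pair it with a leucine zipper. HD-Zip I genes are known mainly from responses to water deficit and abscisic acid, HD-Zip II genes from shade and auxin responses, HD-Zip III genes from meristems, vasculature and the upper face of leaves, and HD-Zip IV genes (the ROC genes of rice) from the epidermis. KNOX genes (OSH and HOS) of class I keep the shoot meristem undifferentiated, whereas class II genes are expressed more broadly in differentiating organs. WOX genes act in stem cell niches and in organ initiation. The 50 measured genes comprised 12 HD-Zip I, 8 HD-Zip II, 5 HD-Zip III, 8 HD-Zip IV, 9 KNOX and 7 WOX genes, together with HOX1A (also named HAZ1), which was not assigned to a class.

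Values are log2 of the deposited intensity, and a change is the mean of drought-stressed arrays minus the mean of well watered arrays, so that 1 stands for 2-fold. A level depends on the probes, so levels of different genes are not comparable, and probe set brightness served only to choose which genes to name. Of the 50 genes, 42 lay above the median of all probe sets, 5.94. The drought changes of floral markers were read from 11 MADS-box genes, whose average changes ran from -0.02 to 0.15. Of these, 2 (MADS4 and MADS14) were higher at an adjusted p of at most 0.05. Among 3 matched genes of green leaf tissue, RCA was higher by 0.28 (adjusted p = 0.012), while RBCS and CAB2R changed by 0.12 and -0.16 and did not pass. Of 6 matched genes of meiocytes and anthers, PAIR2 and a probe set shared by DMC1A and DMC1B were higher by 0.28 and 0.34. TDR, MSP1, PAIR1 and MEL1 changed by -0.30, -0.06, -0.03 and 0.07 and did not pass. These averages hid wider changes in single varieties. TDR ran from -1.43 in KHAUMEO to 0.51 in DOURADOAGULHA and CAB2R from -0.91 in KHAUMEO to 0.84 in MILT1444, none of which passed. RCA rose by 0.94 in MILT1444 (limma, adjusted p = 0.014) and the DMC1 probe set by 0.86 in NIPPONBARE (adjusted p = 0.0043). The part of these shifts in the results below was not tested. In whole panicles, fewer cells of a type and less RNA per cell cannot be told apart. No root marker of the list was matched.

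The average drought response asked which homeobox genes changed across the 6 varieties together. HOX14 (HD-Zip I) and HOX15 (HD-Zip II) rose more than 2-fold, and 15 other members rose by less. HOX16 and WOX10 fell, and with arrays scaled to ACT1 their changes, -0.05 and -0.09, did not pass. At an adjusted p of at most 0.05, 17 of 50 members (34%) were higher, against 20.6% of all probe sets and 29.4% of the probe sets above the median level. The 2 lower members were 4% of the 50, against 21.5% of all probe sets and 21% of those above the median level. Arrays were also scaled to the actin gene ACT1, which itself fell by 0.13 (adjusted p = 0.0029). The scaling therefore added the same amount to every average change and favoured higher calls. It moved the median of all probe sets from -0.01 to 0.11. The split of 17 higher and 2 lower members became 30 and 0, beside 38.7% higher and 6.3% lower of all probe sets. With treatment and replicate number as a random block, an alternative chosen after seeing the data, 13 members (26%) were higher, against 15.7% of all probe sets. With the 2-fold condition added, the 2 higher members stood against a background of 0.341%, and no member was lower, where the background was 0.042%. The median change of the members was 0.05, from -0.22 to 1.17, beside a median of -0.01 over all probe sets with 5th and 95th percentiles of -0.33 and 0.39. Of the members, 14 were higher in 6 of 6 varieties (28%, background 15.6%), and WOX10 alone was lower in 6 of 6 (background 17.4%).

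**Figure D1:**
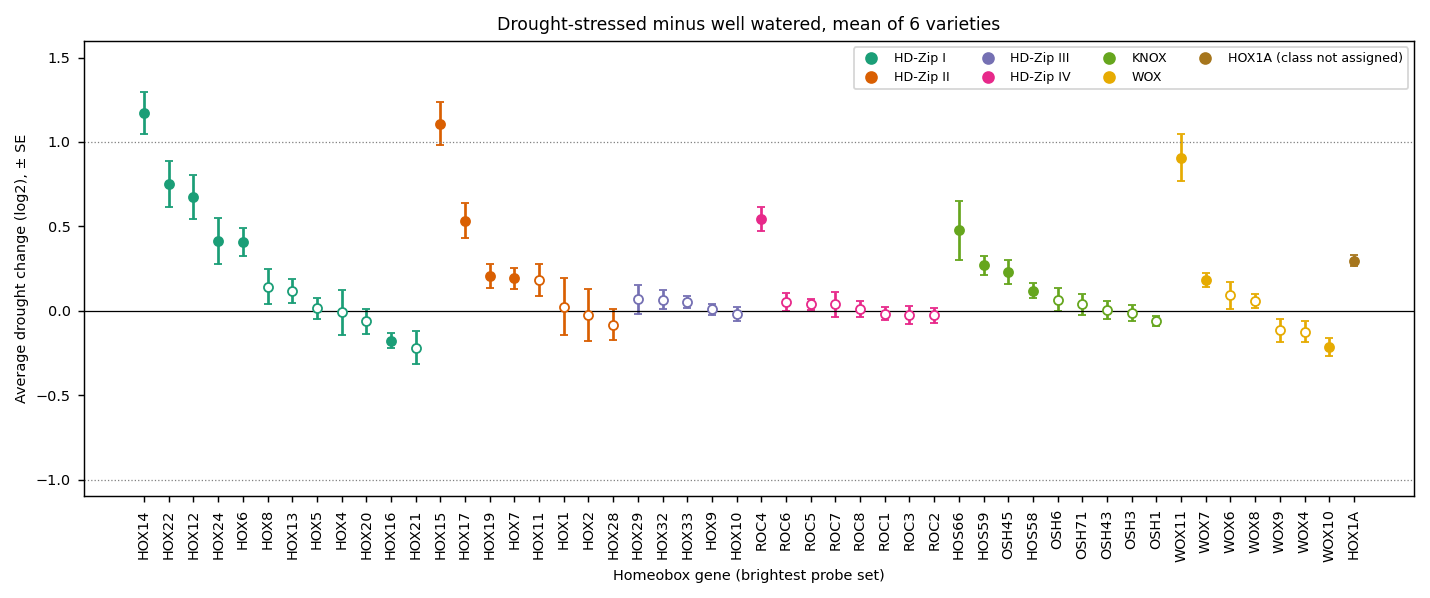
Average drought change (log2, drought-stressed minus well watered, mean of 6 varieties) of the 50 homeobox genes, ordered within class; points are estimates, bars are ± SE from limma, filled points passed an adjusted p of 0.05 and dotted lines mark 2-fold. HOX14 and HOX15 lie above the upper dotted line and the 5 HD-Zip III genes lie between -0.02 and 0.07.

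Among the HD-Zip I genes, 5 of 12 were higher (background 20.6%) and 1 was lower (background 21.5%). With arrays scaled to ACT1 these counts were 7 and 0 (backgrounds 38.7% and 6.3%). HOX14 belongs to the clade of barley Vrs1, a gene that represses lateral spikelets. In well watered panicles, its 3 arrays read 10.45, 9.93 and 9.69 in MILT1444, 8.62, 8.73 and 8.24 in EMATAYIN, 10.21, 10.28 and 9.71 in DOURADOAGULHA, 10.05, 9.65 and 10.18 in KHAUMEO, 9.61, 8.55 and 8.39 in HUHAN3 and 10.35, 10.43 and 10.06 in NIPPONBARE. Under drought stress they read 11.10, 11.03 and 10.33 in MILT1444, 10.36, 9.86 and 10.004 in EMATAYIN, 11.03, 11.08 and 11.27 in DOURADOAGULHA, 10.35, 11.11 and 10.61 in KHAUMEO, 11.50, 10.87 and 10.02 in HUHAN3 and 11.50, 11.18 and 11.05 in NIPPONBARE. All drought-stressed arrays lay above all well watered arrays in 5 varieties, and only in MILT1444 did the groups overlap. The average change of HOX14 was 1.17 ± 0.13 (SE, adjusted p = 1.1e-07), a fold change of 2.25. EMATAYIN and HUHAN3, the varieties with the lowest well watered levels of HOX14, had its largest changes, 1.54 and 1.95, and a low well watered mean enters both values.

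HOX12, a relative of HOX14, is known for its part in panicle exsertion through the gibberellin-inactivating enzyme EUI1. Its well watered arrays read 10.52, 10.44 and 10.45 in MILT1444, 9.82, 10.02 and 9.97 in EMATAYIN, 10.50, 10.54 and 10.62 in DOURADOAGULHA, 10.80, 10.61 and 10.77 in KHAUMEO, 9.84, 8.78 and 9.87 in HUHAN3 and 9.05, 10.01 and 9.18 in NIPPONBARE. The drought-stressed arrays read 11.85, 11.28 and 10.41 in MILT1444, 11.14, 10.66 and 11.05 in EMATAYIN, 11.04, 11.08 and 11.15 in DOURADOAGULHA, 11.06, 10.65 and 10.66 in KHAUMEO, 11.30, 11.13 and 9.81 in HUHAN3 and 10.16, 9.64 and 9.86 in NIPPONBARE. The treatments were separated in EMATAYIN and DOURADOAGULHA and overlapped in the other 4 varieties, where drought-stressed replicate 3 of MILT1444 and of HUHAN3 stayed at its well watered level. The average change was 0.67 ± 0.13 (SE, adjusted p = 2.0e-04), and that of EUI1 was 0.30 (adjusted p = 0.16).

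HOX22 and HOX24, together with HOX6, form the HD-Zip I branch best known for induction by drought and abscisic acid in rice seedlings. For HOX22 the well watered arrays read 6.48, 6.84 and 7.49 in MILT1444, 6.50, 6.26 and 7.08 in EMATAYIN, 6.65, 6.82 and 7.56 in DOURADOAGULHA, 6.68, 6.86 and 7.09 in KHAUMEO, 6.49, 6.80 and 7.69 in HUHAN3 and 7.48, 7.58 and 7.66 in NIPPONBARE. The drought-stressed arrays read 8.39, 7.85 and 7.72 in MILT1444, 6.95, 7.30 and 7.13 in EMATAYIN, 7.74, 7.47 and 7.68 in DOURADOAGULHA, 7.41, 8.89 and 7.39 in KHAUMEO, 7.94, 7.18 and 7.54 in HUHAN3 and 8.59, 8.17 and 8.23 in NIPPONBARE. HOX22 was higher on average in every variety, by 0.51 in EMATAYIN to 1.05 in MILT1444, and the treatments did not overlap in MILT1444, KHAUMEO and NIPPONBARE. Its average change was 0.75 ± 0.14 (SE, adjusted p = 9.0e-05). Well watered replicate 3 was the highest of its group in 6 of 6 varieties, and without replicate 3 of every group the change was 1.04 instead of 0.75. The second KHAUMEO array under drought stress, 8.89, was the highest HOX22 value of all arrays.

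HOX24 was near the low end of the array, with a mean of 4.96, and its response was uneven. The well watered arrays read 4.87, 4.89 and 4.49 in MILT1444, 4.68, 4.81 and 4.54 in EMATAYIN, 4.67, 4.81 and 5.15 in DOURADOAGULHA, 4.76, 4.87 and 4.96 in KHAUMEO, 5.07, 4.79 and 4.17 in HUHAN3 and 4.83, 4.74 and 4.53 in NIPPONBARE. The drought-stressed arrays read 5.70, 5.14 and 4.90 in MILT1444, 4.81, 4.01 and 4.99 in EMATAYIN, 4.91, 4.73 and 5.01 in DOURADOAGULHA, 4.79, 6.50 and 5.11 in KHAUMEO, 5.51, 4.88 and 5.10 in HUHAN3 and 6.46, 5.15 and 5.33 in NIPPONBARE. Only MILT1444 and NIPPONBARE kept the treatments apart, and 1 array each of KHAUMEO (6.50) and NIPPONBARE (6.46) stood above all others. That KHAUMEO array is also the one with the high HOX22 value. The average change was 0.41 ± 0.14 (SE, adjusted p = 0.017), and it did not pass without replicate 1 (0.34, adjusted p = 0.085) or without replicate 3 (0.40, adjusted p = 0.10), nor with the random block (adjusted p = 0.063). On log2 of the intensity plus 50, which compresses the changes of dim probe sets, it was 0.18.

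HOX6, of the same branch, rose by 0.41 (adjusted p = 3.8e-04) and was higher in 6 of 6 varieties, by 0.28 to 0.50. It is named here after its values were seen, as are HOX1A, HOX7, HOX19, HOX21, HOS58 and OSH45. HOX16 fell by 0.18 (adjusted p = 0.0018) and was lower in 5 varieties, with EMATAYIN at 0.10, while its other 2 probe sets changed by -0.09 and 0.03 and did not pass (adjusted p = 0.22 and 0.73). HOX21 changed by -0.67 in KHAUMEO, -0.48 in HUHAN3, -0.40 in NIPPONBARE and 0.20 in MILT1444, and its average of -0.22 did not pass (adjusted p = 0.071).

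**Figure D2:**
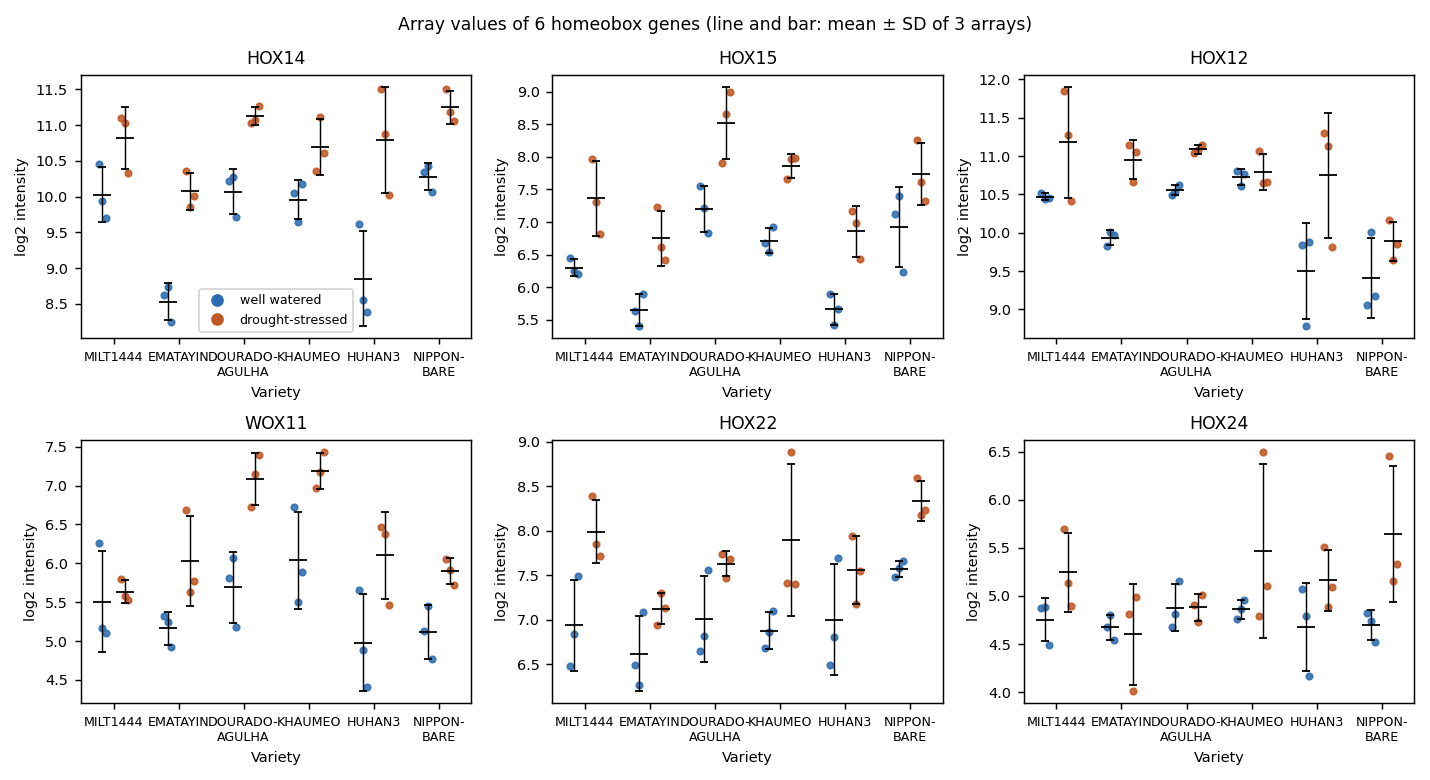
Log2 intensity of HOX14, HOX15, HOX12, WOX11, HOX22 and HOX24 on each of the 36 arrays, by variety (x axis) and treatment (colour); points are arrays, the black line and bar are the mean ± SD of 3 arrays. HOX15 is higher under drought stress in all 6 varieties, with means from 6.75 to 8.52 against 5.65 to 7.20, and for HOX24 single arrays of KHAUMEO and NIPPONBARE stand above 6.4.

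Of the HD-Zip II genes, 4 of 8 were higher (background 20.6%) and none was lower (background 21.5%). With arrays scaled to ACT1 these counts were 5 and 0 (backgrounds 38.7% and 6.3%). HOX15 rose by a similar amount in most varieties. Its well watered arrays read 6.45, 6.26 and 6.20 in MILT1444, 5.63, 5.41 and 5.90 in EMATAYIN, 7.55, 7.22 and 6.83 in DOURADOAGULHA, 6.68, 6.54 and 6.92 in KHAUMEO, 5.89, 5.42 and 5.67 in HUHAN3 and 7.12, 7.40 and 6.23 in NIPPONBARE. Its drought-stressed arrays read 7.96, 7.31 and 6.81 in MILT1444, 7.23, 6.61 and 6.42 in EMATAYIN, 7.91, 8.66 and 9.0 in DOURADOAGULHA, 7.65, 7.97 and 7.98 in KHAUMEO, 7.18, 6.98 and 6.43 in HUHAN3 and 8.25, 7.62 and 7.33 in NIPPONBARE. The treatments overlapped in NIPPONBARE only, where 1 drought-stressed array (7.33) lay below 1 well watered array (7.40). The average change was 1.11 ± 0.13 (SE, adjusted p = 2.7e-07), a fold change of 2.16, and the 6 varieties ranged from 0.81 in NIPPONBARE to 1.32 in DOURADOAGULHA. The probe set of HOX15 is of the kind marked as shared between transcripts, as are those of 11 other members, among them HOX17, HOX7, HOX19, OSH1 and OSH43. Signal from related genes therefore cannot be told apart from that of these members.

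HOX17 rose by 0.53 (adjusted p = 2.2e-04), from -0.01 in MILT1444 to 0.90 in KHAUMEO, where its arrays spread from 6.18 to 7.62. HOX19 changed by 0.21 (adjusted p = 0.023), but another of its probe sets fell by 0.18 (adjusted p = 0.0040), and the first did not pass with the random block (adjusted p = 0.066) or without replicate 2 or 3 (0.22 and 0.34). HOX7 changed by 0.19 (adjusted p = 0.014), which was 0.06 without replicate 1 (adjusted p = 0.38) and did not pass without replicate 2 (0.12) or with quantile normalization (0.15). HOX1, known in rice for the commitment of provascular cells, had an average change of 0.02 (adjusted p = 0.92). In well watered panicles its replicate 3 was the lowest of the 3 arrays in 6 of 6 varieties, by as much as 8.34 against 10.04 and 10.01 in EMATAYIN.

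On average, none of the 5 HD-Zip III genes passed, although HOX9, HOX32 and HOX33 did as higher with arrays scaled to ACT1, with average changes from -0.02 (HOX10) to 0.07 (HOX29) and with HOX32 at 0.06 and HOX33 at 0.05. A second probe set of HOX10, described further on, rose by 0.74. Within single varieties none of the 5 passed either, with changes of 0.21 to 0.34 in HUHAN3, 0.11 to 0.39 in NIPPONBARE and -0.26 to -0.09 in DOURADOAGULHA. For HOX9 the drought-stressed arrays of HUHAN3 read 11.31, 11.38 and 11.33 against 11.02, 11.25 and 11.12 well watered, and those of KHAUMEO read 11.04, 11.11 and 11.08 against 11.18, 11.24 and 11.14. The test of the difference among varieties gave an unadjusted p of 0.00997 for HOX9 and 0.0256 for HOX10 in limma, with adjusted p of 0.49 and 0.60, so a difference among varieties did not pass for either gene.

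Of the 8 HD-Zip IV genes, ROC4 alone was higher (background 20.6%). ROC1, ROC5 and ROC6 joined it with arrays scaled to ACT1 (background 38.7%). ROC4 is known as an activator of cuticular wax synthesis in rice leaves. Its well watered arrays read 7.78, 7.85 and 7.25 in MILT1444, 7.07, 7.0 and 7.40 in EMATAYIN, 7.34, 7.80 and 7.74 in DOURADOAGULHA, 7.01, 6.87 and 6.87 in KHAUMEO, 7.20, 7.32 and 7.22 in HUHAN3 and 6.92, 6.63 and 7.03 in NIPPONBARE. Its drought-stressed arrays read 8.0, 7.92 and 8.58 in MILT1444, 7.47, 7.41 and 7.03 in EMATAYIN, 8.13, 7.90 and 7.79 in DOURADOAGULHA, 7.66, 7.65 and 7.75 in KHAUMEO, 8.21, 7.87 and 8.14 in HUHAN3 and 7.39, 7.47 and 7.77 in NIPPONBARE. The treatments were apart in MILT1444, KHAUMEO, HUHAN3 and NIPPONBARE and overlapped in EMATAYIN and DOURADOAGULHA. The average change was 0.55 ± 0.07 (SE, adjusted p = 1.6e-06). The other 7 genes changed by -0.03 to 0.05, among them ROC5, which acts on bulliform cells and leaf rolling (0.04, adjusted p = 0.34), and ROC6 (0.05, adjusted p = 0.46).

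The KNOX genes are given by class I and class II, a grouping made after the values were seen and so read as description. The class II genes HOS66, HOS59, OSH45 and HOS58 passed as higher, 4 of 4 beside the background of 20.6%, by 0.48, 0.27, 0.23 and 0.12 (adjusted p = 0.030, 3.5e-04, 0.012 and 0.026). On their brightest probe sets, the class I genes OSH1, OSH3, OSH6, OSH43 and OSH71 changed by -0.06 to 0.07, and 0 of 5 passed. OSH6 and OSH71 passed with arrays scaled to ACT1. The difference between the classes was not tested. With the random block HOS66 and HOS58 did not pass (adjusted p = 0.089 and 0.065). HOS66, HOS58 and OSH45 each lost the call without either of 2 replicate numbers, and OSH45 also with quantile normalization (adjusted p = 0.13), whereas HOS59 passed in all of these settings. HOS59 was higher in 6 of 6 varieties, by 0.08 in NIPPONBARE to 0.55 in DOURADOAGULHA. HOS66 was dim, and the first NIPPONBARE array of each treatment stood apart at 6.42 well watered and 6.70 drought-stressed, beside 4.43 to 5.07 on the other 4 arrays of that variety. Leaving out any 1 of 4 arrays ended the call of HOS66 (adjusted p = 0.050 to 0.056), namely drought-stressed replicate 1 of MILT1444, well watered replicate 1 of EMATAYIN, and well watered replicate 3 or drought-stressed replicate 1 of NIPPONBARE.

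OSH1, the gene of the class known to maintain the shoot meristem, changed by -0.06 ± 0.03 (SE, adjusted p = 0.12) on its brightest probe set. The group means of that probe set, which is of the kind marked as shared between transcripts, stayed between 11.85 and 12.32. The dimmer probe set of OSH1, described further on, fell by 0.38 (adjusted p = 0.031) and was lower on average in every variety.

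Of the 7 WOX genes, WOX11 and WOX7 were higher (background 20.6%) and WOX10 was lower (background 21.5%). With arrays scaled to ACT1, 4 were higher and 0 lower (backgrounds 38.7% and 6.3%). WOX11 is known for starting crown roots. Its well watered arrays read 6.26, 5.17 and 5.10 in MILT1444, 5.32, 5.25 and 4.93 in EMATAYIN, 5.81, 6.07 and 5.19 in DOURADOAGULHA, 6.73, 5.51 and 5.88 in KHAUMEO, 5.65, 4.89 and 4.40 in HUHAN3 and 5.14, 5.46 and 4.77 in NIPPONBARE. Its drought-stressed arrays read 5.80, 5.58 and 5.53 in MILT1444, 6.69, 5.63 and 5.77 in EMATAYIN, 6.73, 7.15 and 7.39 in DOURADOAGULHA, 6.97, 7.17 and 7.43 in KHAUMEO, 6.47, 6.38 and 5.46 in HUHAN3 and 6.06, 5.92 and 5.72 in NIPPONBARE. The treatments were separated in EMATAYIN, DOURADOAGULHA, KHAUMEO and NIPPONBARE, whereas MILT1444 changed by 0.13 only. The average change was 0.91 ± 0.14 (SE, adjusted p = 1.7e-05). On log2 of the intensity plus 50 it was 0.50 and still passed. WOX7 rose by 0.18 (adjusted p = 5.8e-04; 0.06 on log2 plus 50), with 0.56 in HUHAN3 and 0.04 to 0.25 in the other 5 varieties. WOX10 fell by 0.21 (adjusted p = 0.0024) at a mean level of 4.45, and its treatments were apart in KHAUMEO and NIPPONBARE. WOX8 changed by 0.06 (adjusted p = 0.29).

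HOX1A, which carries a PHD finger beside its homeodomain, was the only member whose drought-stressed arrays lay above the well watered arrays in 6 of 6 varieties. The share of all probe sets that did so was not counted, and HOX1A was named after its values were seen. Its well watered arrays ran from 10.99 in HUHAN3 to 11.42 in MILT1444, and its drought-stressed arrays from 11.27 in HUHAN3 to 11.80 in DOURADOAGULHA. The change was small and even, from 0.18 in EMATAYIN to 0.41 in DOURADOAGULHA, with an average of 0.30 ± 0.03 (SE, adjusted p = 1.1e-07) and a fold change of 1.23.

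Changes within single varieties were asked next, because the study compared well watered and drought-stressed panicles variety by variety. With the 2-fold condition, 4 of 50 genes (HOX12, HOX14, HOX15 and WOX11) were called in at least 1 variety, all higher, where 1.77% of all probe sets were called in either direction. By adjusted p alone HOS59, HOX1A, ROC4 and WOX7 joined them, 8 genes in all, against 16.9%. HUHAN3 had the most 2-fold calls, HOX14 at 1.95, HOX12 at 1.25 and HOX15 at 1.20 (adjusted p = 7.9e-04, 0.028 and 0.027), beside a background of 0.554% higher. DOURADOAGULHA had WOX11 at 1.40 and HOX15 at 1.32 (adjusted p = 0.028 and 0.021, background 0.231%), and EMATAYIN had HOX14 at 1.54 (adjusted p = 0.036, background 0.0507%). MILT1444, KHAUMEO and NIPPONBARE had none, with backgrounds of 0.614%, 0.259% and 0.546% higher. No member was called lower at 2-fold in any variety, where the backgrounds were 0.117% for NIPPONBARE, 0.0927% for KHAUMEO, 0.0839% for DOURADOAGULHA, 0.0699% for HUHAN3, 0.0559% for MILT1444 and 0.0122% for EMATAYIN.

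These single-variety calls rested on few arrays. That of HOX14 in HUHAN3 was kept without any 1 array. The call of HOX14 in EMATAYIN ended without any 1 of 5 of its 6 arrays (adjusted p up to 0.21), that of HOX12 in HUHAN3 without 1 of 3 arrays (up to 0.23), and those of HOX15 in DOURADOAGULHA, HOX15 in HUHAN3 and WOX11 in DOURADOAGULHA each without 1 of 4 arrays (up to 0.16, 0.20 and 0.16). With each variety fitted on its own 6 arrays, none of these 6 calls was kept (adjusted p = 0.10 to 0.24), and the 2-fold call made was HOX15 in KHAUMEO (1.15, adjusted p = 0.045). An exact permutation test of 3 arrays against 3 cannot give a p below 0.1, so none was run.

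Members were also counted by arrays that did not overlap, with the share of all probe sets as background. A background of probe sets above the median level was not computed for these counts, and no difference from the background was tested. In HUHAN3 all drought-stressed arrays lay above all well watered arrays for 15 of 50 members (30%, background 11.8%), in KHAUMEO for 12 (24%, background 12.3%) and in NIPPONBARE for 11 (22%, background 16.5%). The counts were 9 in DOURADOAGULHA (18%, background 13.1%), 8 in EMATAYIN (16%, background 8.16%) and 7 in MILT1444 (14%, background 11.3%). Members that lay below numbered 6 in KHAUMEO (12%, background 10.4%), 4 in NIPPONBARE (8%, background 17.4%) and 1 or 2 in the other 4 varieties, where the backgrounds were 9.87% in MILT1444, 8.26% in EMATAYIN, 11.6% in DOURADOAGULHA and 12.5% in HUHAN3.

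**Figure D3:**
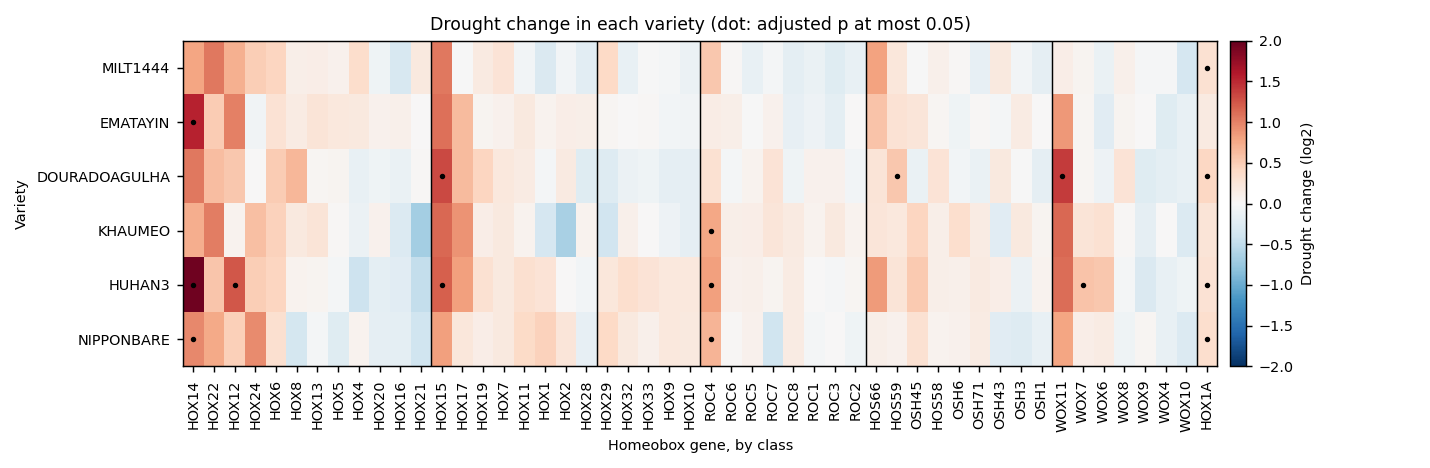
Drought change (log2, by colour) of the 50 homeobox genes (columns, grouped by class and ordered by average change) in each of the 6 varieties (rows); black dots mark an adjusted p of at most 0.05 in limma. HOX14, HOX15 and WOX11 are higher in all 6 rows, and no dot falls in the HD-Zip III columns.

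Whether the varieties differed in their drought response was tested directly. None of the 50 genes passed the test of variety by treatment (limma, adjusted p; background 0.0542%), and 3 genes had an unadjusted p under 0.05, namely WOX7 (0.0039, adjusted p = 0.38), HOX9 and HOX10. Nor did any member differ between the 4 tolerant and the 2 sensitive varieties (background 0%), and the 4 with an unadjusted p under 0.05 in limma (HOX12, HOX21, ROC8 and OSH43) differed by less than 2-fold. The largest such differences were 0.61 ± 0.28 for HOX12 (SE, tolerant minus sensitive, adjusted p = 0.78), -0.55 ± 0.29 for HOX24 (adjusted p = 0.81) and 0.49 ± 0.27 for HOX14 (adjusted p = 0.82). Their SE and p values rest on the spread of arrays within groups, not on the spread among varieties of one kind. These p values do not show that the 2 kinds of variety responded alike. In both tests, some of 50 genes reach an unadjusted p under 0.05 with no effect. The share of all probe sets that did so was not counted.

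The well watered levels were compared to see which members differ among varieties before any stress. By an adjusted p and a range of at least 2-fold between the highest and the lowest variety, 8 of 50 members differed (16%), against 14.5% of all probe sets and 20% of those above the median level. By adjusted p alone 24 did (48%, background 34%), and for this count the share above the median level was not computed. Among the 24 were 4 of 5 HD-Zip III genes and 5 of 5 class I KNOX genes, the latter a grouping made after the values were seen. RNA level and the match of a variety's sequence to the probes cannot be told apart in these comparisons. Marker genes differed among the same well watered panicles, with ranges of 4.17 for TDR, 2.57 for PAIR2 and 1.82 for RCA. The 11 floral MADS-box genes had ranges of 0.26 to 1.10. Whether the varieties differed in stage or tissue make-up at 2 cm was not tested.

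HOX1 had the widest range, 1.92 (adjusted p = 0.015), from 8.48 ± 0.41 (SD, n = 3) in NIPPONBARE to 10.40 ± 0.13 in KHAUMEO. Without well watered replicate 3 of NIPPONBARE the range was 1.70 and did not pass (adjusted p = 0.085). HOX14 ranged over 1.75 (adjusted p = 4.1e-05), and its gap of 1.11 between HUHAN3 and KHAUMEO set EMATAYIN (8.53 ± 0.26) and HUHAN3 (8.85 ± 0.66) apart from the other 4 varieties (9.96 to 10.28). HOX15 ranged over 1.55 (adjusted p = 2.6e-04), with DOURADOAGULHA highest at 7.20 and the same pair of varieties lowest, EMATAYIN at 5.65 and HUHAN3 at 5.66. HOX12 ranged over 1.31 (adjusted p = 0.0029), and there NIPPONBARE (9.41) and HUHAN3 (9.50) were lowest and KHAUMEO (10.73) highest.

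HOX8 was highest in HUHAN3 (7.50 ± 0.50) and lowest in DOURADOAGULHA (6.24 ± 0.25, adjusted p = 0.0011), and without well watered replicate 1 of HUHAN3 its range fell to 0.97, under 2-fold. WOX6, with a range of 1.25 (adjusted p = 1.5e-05), and OSH6, with 1.21 (adjusted p = 3.1e-05), were both highest in MILT1444 and lowest in KHAUMEO. For OSH6 the 3 KHAUMEO arrays read 9.46, 9.59 and 9.47, below every well watered array of the other varieties, and the MILT1444 arrays, 10.64, 10.90 and 10.59, were above every one. OSH43 ranged over 1.12 (adjusted p = 1.4e-06), with NIPPONBARE (7.86, 7.80 and 7.52) above every well watered array of the other varieties and DOURADOAGULHA lowest on average (6.61). This order held for that probe set only, which is of the kind marked as shared between transcripts. The dimmer probe set of OSH43, not so marked, ranged over 2.14 (adjusted p = 1.3e-09), with MILT1444 highest (6.79) and EMATAYIN (4.66) and HUHAN3 (4.83) lowest.

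**Figure D4:**
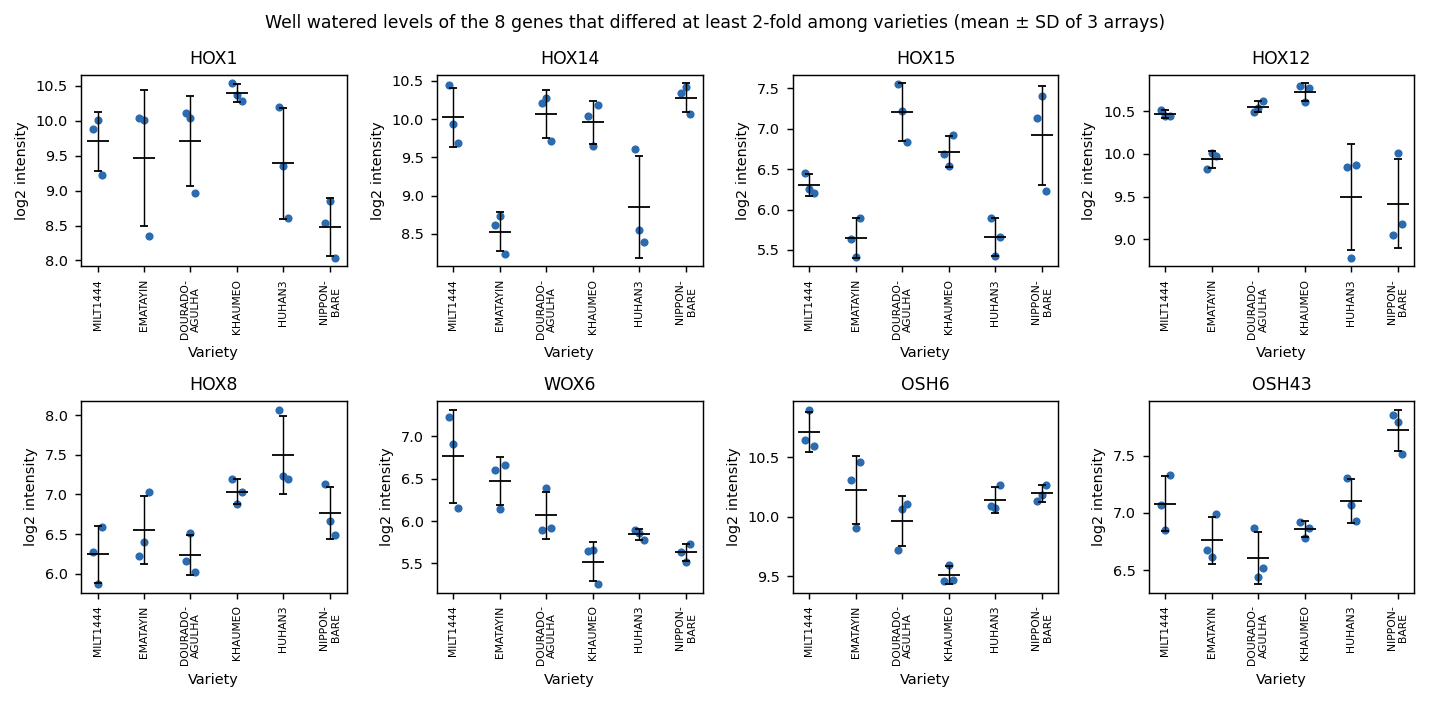
Log2 intensity in well watered panicles of the 8 homeobox genes that differed at least 2-fold among the 6 varieties (x axis); points are arrays, the line and bar are the mean ± SD of 3 arrays, and each panel has its own y axis. OSH6 falls from 10.71 in MILT1444 to 9.51 in KHAUMEO, and HOX14 is lowest in EMATAYIN and HUHAN3.

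The remaining 12 probe sets belong to 10 genes with more than 1 and were read as a check of the brightest ones. For 2 of the 12 both probe sets passed in the same direction on average drought, for 1 (HOX19) they passed in opposite directions, for 2 only the brightest passed, for 5 only the dimmer, and for 2 neither. HOX10 was level on its brightest probe set (-0.02), but its dimmer one rose by 0.74 ± 0.11 (SE, adjusted p = 1.0e-05). The means of that dimmer probe set went from 7.01 to 8.09 in MILT1444, from 7.38 to 7.78 in EMATAYIN, from 8.27 to 9.10 in DOURADOAGULHA, from 8.12 to 8.58 in KHAUMEO, from 6.90 to 8.07 in HUHAN3 and from 6.74 to 7.23 in NIPPONBARE. The treatments did not overlap in 5 varieties, NIPPONBARE being the exception. It was called at 2-fold in MILT1444 and HUHAN3 (adjusted p = 0.024 and 0.016). The dimmer probe sets of HOX5, ROC6 and HOX7 also rose, by 0.39, 0.38 and 0.63, and those of HOX20 and OSH1 fell by 0.19 and 0.38.

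The probe sets of OSH1 differed most between subspecies. The dimmer one read 11.08 to 11.58 on average in the well watered panicles of the 4 japonica varieties and 8.23 ± 0.38 and 7.91 ± 0.35 (SD, n = 3) in DOURADOAGULHA and KHAUMEO, the 2 indica varieties, while the brightest one lay at 11.99 to 12.32 in all 6. Its range among varieties was 3.67 (adjusted p = 1.6e-11), against 0.33 for the brightest. Under drought stress its arrays spread from 6.62 to 8.47 in DOURADOAGULHA and from 6.71 to 8.59 in KHAUMEO. The brightest OSH1 probe set is of the kind marked as shared between transcripts, and the dimmer one is not. The transcripts or parts of transcripts that the probe sets of one gene detect were not compared here.

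**Figure D5:**
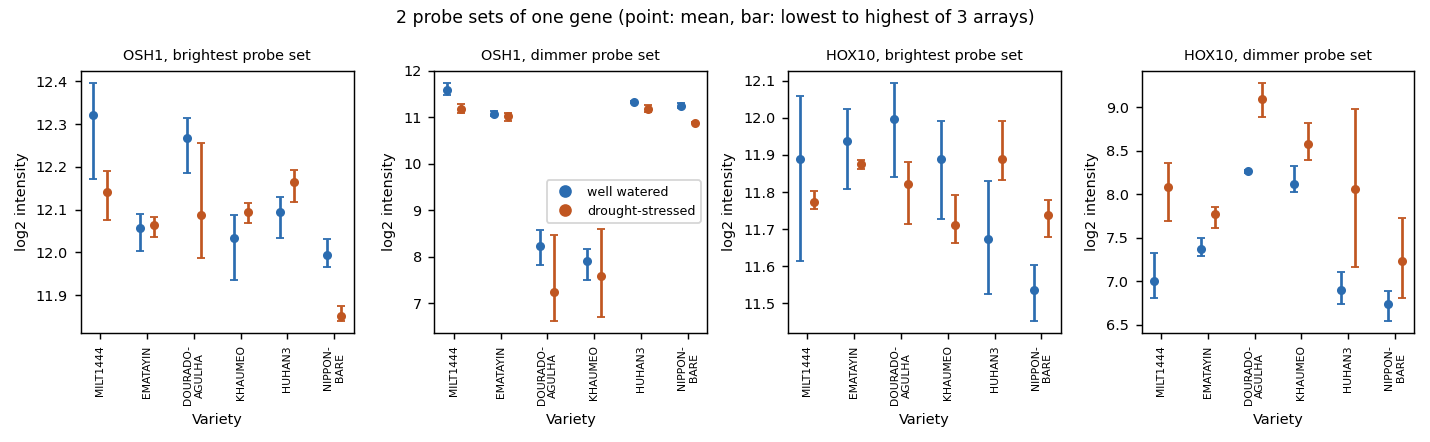
Log2 intensity of the brightest and the dimmer probe set of OSH1 and HOX10 by variety (x axis) and treatment (colour); points are means and bars run from the lowest to the highest of 3 arrays, with a separate y axis for each panel. The dimmer OSH1 probe set is near 8 in DOURADOAGULHA and KHAUMEO and near 11 in the other 4 varieties, and the dimmer HOX10 probe set has a higher mean under drought stress in all 6 varieties.

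Other genes of meristem, gibberellin and homeodomain biology were counted from lists drawn up by function. Of 22 listed gibberellin genes, 7 were matched and 5 were higher (KAO 0.40, KS1 0.37, CPS1 0.32, GA20OX3 0.31 and KO2 0.25), with a list median of 0.31. Of 34 listed meristem and polarity genes, 10 were matched, of which RFL, a regulator of panicle branching, rose by 0.82 (adjusted p = 2.0e-04), FON1 and LOG rose by 0.25 and 0.24, and YAB1 fell by 0.21. Of 28 listed BELL and zinc finger homeodomain genes, 4 were matched (ZHD1, ZHD2, ZHD4 and ZHD10), and their changes of -0.07 to 0.09 did not pass. All of these counts stand beside the background of 20.6% higher and 21.5% lower.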

How the data were processed

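RNA of young panicles was measured on 36 Affymetrix rice arrays in 12 groups. Per the labels, the authors used RMA, the affy package and limma, with versions not given in the sources used. The deposited table holds linear intensities (1.0 to 21698.89, of which 112 equal 1), although RMA ends in log2 units, and how they were made linear is not stated there. The number of arrays limits the precision.

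Log2 intensities were taken, without 187 control probe sets, and a mean per group was fitted in limma 3.58.1 (R 4.3.3, eBayes at its defaults) for 57194 probe sets. Tests covered the effect of drought in every variety and on average, tolerant minus sensitive varieties, and, as F tests, the well watered means and variety by treatment. P values were adjusted over all probe sets (Benjamini-Hochberg). Calls needed an adjusted p of at most 0.05, and 2-fold where stated. The procedure was tested on simulated data. Array correlations within groups were 0.985 to 0.993, and no arrays were identical.

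Genes were named from the platform annotation and RefSeq symbols; 22436 probe sets had 1 gene, 95 had several, and the others are unnamed here. Named genes were HOX22 and HOX24, members called with the 2-fold condition, the brightest member and the 2 with the largest average change in each class, the 5 with the widest well watered range and the 3 with the smallest variety by treatment p. Members and lists were chosen with earlier results of these data known. Sequences and positions were not analysed here. Alternatives covered the eBayes setting, the level filter, replicate blocks, scaling, thresholds, the probe set choice and left-out arrays.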

Additional observations from a re-analysis of the deposited data

Results flagged for a closer look

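Members were singled out for a closer look when all drought-stressed arrays lay above all well watered arrays in one variety and below them in another. The share of all probe sets that met this rule was not counted, and some genes can meet it with no effect. HOX9 (HD-Zip III) lay above in HUHAN3 and NIPPONBARE and below in KHAUMEO, with changes of 0.21, 0.22 and -0.11. Its test of variety by treatment gave an adjusted p of 0.494 in limma. ROC3 (HD-Zip IV) lay above in KHAUMEO and below in EMATAYIN, with changes of 0.20 and -0.20, and the same test gave an adjusted p of 0.807. Neither difference passed.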

How the results depend on the processing

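The count of 2 members in the average response was 1 on log2 of the intensity plus 50, where HOX15 fell under 2-fold, and 19 without the fold threshold. The count of 4 in at least 1 variety was 1 with each variety fitted alone, 7 with arrays scaled to ACT1, 8 without the fold threshold and 0 to 4 without 1 replicate number (0 without replicate 2). The count of 8 for the well watered level was 4 on log2 plus 50, 24 without the fold threshold and 5 to 11 without 1 replicate number. Variety by treatment gave 0, and 3 at an unadjusted p. HOX22 stayed between 0.57 and 1.04 and HOX24 between 0.34 and 0.49 without 1 replicate number, and between 0.67 and 0.81 and between 0.33 and 0.47 without 1 array. On log2 plus 50 HOX24 was 0.18, and HOX6, HOX17, HOX19, HOS66, WOX7, WOX10 and WOX11 were also smaller by over 1.5 times (0.26, 0.33, 0.13, 0.16, 0.06, -0.07 and 0.50), HOS66 without passing. HOX10 turned from -0.02 to 0.36 (adjusted p = 4.3e-05) with the mean of all its probe sets.

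Scaling to ACT1, which itself changed by -0.13, raised the members that passed as higher from 17 to 30, and HOX16 and WOX10 did not pass (-0.05 and -0.09). With quantile normalization HOX7 and OSH45 did not pass (adjusted p = 0.15 and 0.13), nor did HOX14 in EMATAYIN (0.061). Without 1 replicate number HOX16, WOX10, HOS66, HOX19, HOX7, HOS58 and OSH45 each lost their average call at least once. The cause of these changes was not tested.

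Same-numbered arrays of the 2 treatments deviated together with correlations of -0.301 to 0.202, so the numbers were not taken as pairs. With the replicate block across all arrays the counts were 2, 4, 9 and 0, and with the replicate block within variety 2, 3 and 0; the latter could not be fitted for the well watered level. Deviations of arrays of one treatment and number had mean correlations across varieties of 0.147, 0.0261 and 0.242 for well watered replicates 1, 2 and 3. Under drought stress the means were 0.0731, -0.018 and 0.0741. A random block of treatment and number, chosen after seeing the data, left the average count at 2, while HOX24 (0.41, adjusted p = 0.063), HOS66 (0.089), HOX19 (0.066) and HOS58 (0.065) did not pass.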
